A study of Brassica napus with 12 samples.

Results

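The first 8 Mb of chromosome A02 of rapeseed (Brassica napus) hold 1430 of the 100919 genes in the deposited count table, with start sites from 51053 to 7997546. Members were taken as every gene listed on A02, the word scaffold removed from the chromosome name, with a start site under 8000000. Chromosome A02 has 4203 listed genes in all. The limits were set because SX3 and ZS11 differ in this stretch, so SX3 against ZS11 is given below as a description, without a test. Libraries of the backcross plants Slike and Zlike did not set the limits, and their comparison carries the tests. For each member it was asked whether a gene on C02 with the same protein-match text starts under 9 Mb. Such a C02 match existed for 758 members, 360 members had a protein text without a match, and 312 had no protein text.

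RNA came from whole apical meristems, collected as the inflorescence primordium passes to floral primordia, and was sequenced in 4 groups of 3 libraries. SX3 is a line labelled as a natural mutant and ZS11 is the line labelled wild type. Slike is a class of second-backcross (BC2) plants labelled with the mutant genotype, and Zlike is the BC2 class labelled wild type. These backcross classes differ in inflorescence and plant architecture. All plants were field-grown at an experimental station and received no treatment. Which line was the recurrent parent of the backcross is not in the labels. Nor do they give the number of plants behind a library, so a p-value here weighs a difference against library-to-library spread, part of which may be technical. Total counts ran from 13445924 to 17778731 per library. The meristem markers STM, WUS and CLV3 had counts in every group.

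Rapeseed is an allotetraploid: it carries an A subgenome, from a relative of turnip, and a C subgenome, from a relative of cabbage. Most genes therefore exist as an A copy and a C copy, called homoeologs, which lie in the same order on matching chromosomes such as A02 and C02. In this species matching A and C segments are known to replace each other at times, so that a plant can carry a segment of either kind in more or fewer copies. In RNA counts the number of copies of a gene and the RNA made per copy cannot be told apart, and neither can fewer cells of a type and less RNA per cell. Whether reads of SX3 match the genome used for counting as well as reads of ZS11 do was not tested. Coordinates are those of the deposited table, and its genome build is not given in the sources used here.

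The A02 stretch consists of 2 zones by its C02 matches. Of the 758 members with a match under 9 Mb, 746 start in the first 6 Mb and 12 from 6 to 8 Mb. The share of genes with a match was 69.4% from 5 to 5.5 Mb and 14.4% from 5.5 to 6 Mb. A protein text held by exactly 1 member and exactly 1 C02 gene under 9 Mb gave 582 single pairs, whose A02 and C02 start sites follow nearly the same order (Spearman rho 0.92 over pairs, a description). The last pair of that ordered run is UBC7, a ubiquitin-conjugating enzyme, which starts at 5625388 on A02 and at 8973488 on C02. Beyond it the matching C02 genes lie past the 9 Mb limit: of 288 members with a text that start after UBC7, 263 have a match on C02 from 9 Mb on. A member without a match is thus often a gene whose C02 copy lies further along C02, since this held for 258 of the 360.

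A larger share of genes was expressed here than in the table as a whole. A mean of 1 CPM (the count relative to library size, scaled by TMM factors) or more over all 12 libraries was reached by 780 members, or 54.5%, against 46.6% of all genes in the table. At the other end, 266 members had no count in any library. Median FPKM, which divides by gene length, over the 780 expressed members was 8.41 in SX3, 7.86 in ZS11, 9.2 in Slike and 8.04 in Zlike. The same medians over all 46987 expressed genes were 7.28 in SX3, 7.83 in ZS11, 8.17 in Slike and 8.15 in Zlike.

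As a share of all counts in a library, the A02 stretch and the start of C02 went opposite ways. The 1430 members held 2.31 to 2.32% of counts in SX3 libraries and 1.66 to 1.67% in ZS11 libraries, and 2.09 to 2.1% in Slike libraries and 1.88% in each Zlike library. The 1291 genes of C02 under 9 Mb held 0.156 to 0.159% in SX3 and 1.4 to 1.41% in ZS11, and 0.958 to 0.964% in Slike and 1.25% in Zlike. No library of a group overlapped another group in either share. Added together, both ends held 2.47 to 2.48% in SX3, 3.07 to 3.08% in ZS11, 3.06 to 3.07% in Slike and 3.13% in Zlike.

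Along A02 the SX3 minus ZS11 difference changed sign between the neighbouring bins in which the share of matches drops. Differences are between group means of log2 (scaled CPM plus 0.5), given as medians over genes with a mean of 1 CPM or more. In SX3 minus ZS11 the median was 0.84 for genes from 5 to 5.5 Mb and −0.85 for genes from 5.5 to 6 Mb. Slike minus Zlike gave 0.11 and −0.01 for the same bins. Over the members under 5 Mb the median was 0.20 in Slike minus Zlike and 0.47 in SX3 minus ZS11, and over those from 6 to 8 Mb it was 0.02 and −0.66. Over all expressed genes of the table the medians were −0.00 and −0.01. The 36 expressed members without a match that start under 5 Mb had medians of 0.19 in Slike minus Zlike and 0.30 in SX3 minus ZS11. All 187 expressed members without a match had 0.08 and −0.51. Past the stretch, A02 genes from 8 Mb on had a median of −0.47 in SX3 minus ZS11. On C02 under 9 Mb the medians were −0.41 in Slike minus Zlike and −3.74 in SX3 minus ZS11.

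**Figure D1:**
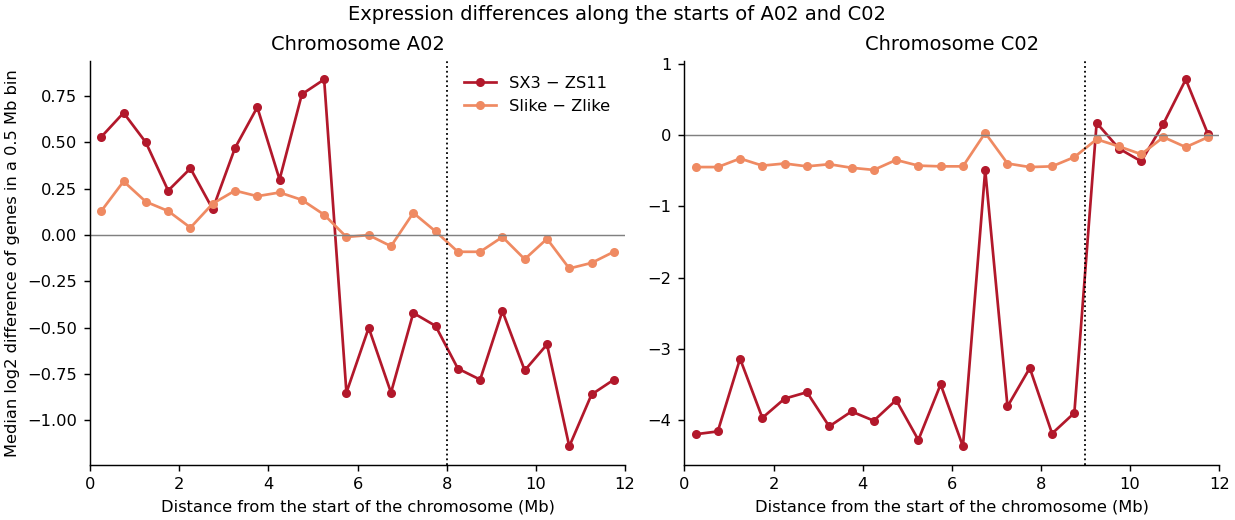
Median log2 difference of expressed genes in 0.5 Mb bins (vertical axis) against the distance from the start of A02 (left) and C02 (right), for SX3 minus ZS11 and Slike minus Zlike; dotted lines stand at 8 Mb on A02 and 9 Mb on C02. On A02 the SX3 minus ZS11 line passes from 0.84 to −0.85 between neighbouring bins. On C02 it lies from −4.37 to −3.14 up to 9 Mb except in the bin from 6.5 to 7 Mb, at −0.49.

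Single libraries lay close to their group. Against the ZS11 mean, members with a match had medians of 0.49 to 0.50 in SX3 libraries, 0.32 to 0.37 in Slike libraries and 0.11 to 0.13 in Zlike libraries. Members from 6 to 8 Mb had medians of −0.68 to −0.60 in SX3 libraries, −0.15 to −0.11 in Slike libraries and −0.14 to −0.12 in Zlike libraries. The Slike and Zlike libraries did not overlap over members with a match, and they overlapped over members from 6 to 8 Mb.

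The share of reads that the A02 copy takes within a pair needs no scaling between libraries. It was computed for the 412 single pairs whose copies together had a mean of 1 CPM or more. The median A02 share was 100% in each SX3 library and 49.4, 49.6 and 49% in ZS11 libraries. It was 67.9, 66.7 and 68.2% in Slike libraries and 57.3, 57.2 and 56.7% in Zlike libraries. Computed from FPKM, which accounts for the lengths of the copies, the ZS11 medians were 49.1, 49.8 and 49.8%. Over 3389 single A and C pairs elsewhere in the genome, the median A share was 44.7% in SX3, 47.7% in ZS11, 46.7% in Slike and 47.7% in Zlike. Those pairs had texts held by exactly 1 gene in the whole A subgenome and 1 in the whole C subgenome. Pairs of the stretch needed this only within the stretch and C02 under 9 Mb, so the rules of the pair sets differ.

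The order SX3, Slike, Zlike, ZS11 from high to low A02 share held in 311 of 410 pairs with reads in all 4 groups. SX3 lay above ZS11 in 387 of them, which the choice of the stretch in part fixes. The order was not counted in pairs elsewhere, so it is a description. In 264 of 410 pairs (64.4%) the A02 share was higher in every Slike than in every Zlike library, against 11.8% of the pairs elsewhere. In 5 pairs (1.22%) it was lower in every Slike library, against 16.8% elsewhere. The C02 copy had no count in any SX3 library in 173 of the 412 pairs, and the A02 copy had none in 4. In ZS11 each copy was without counts in 8 pairs. A count of 0 allows up to 3 counts, or 0.169 to 0.223 CPM depending on the library, for counting error only.

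**Figure D2:**
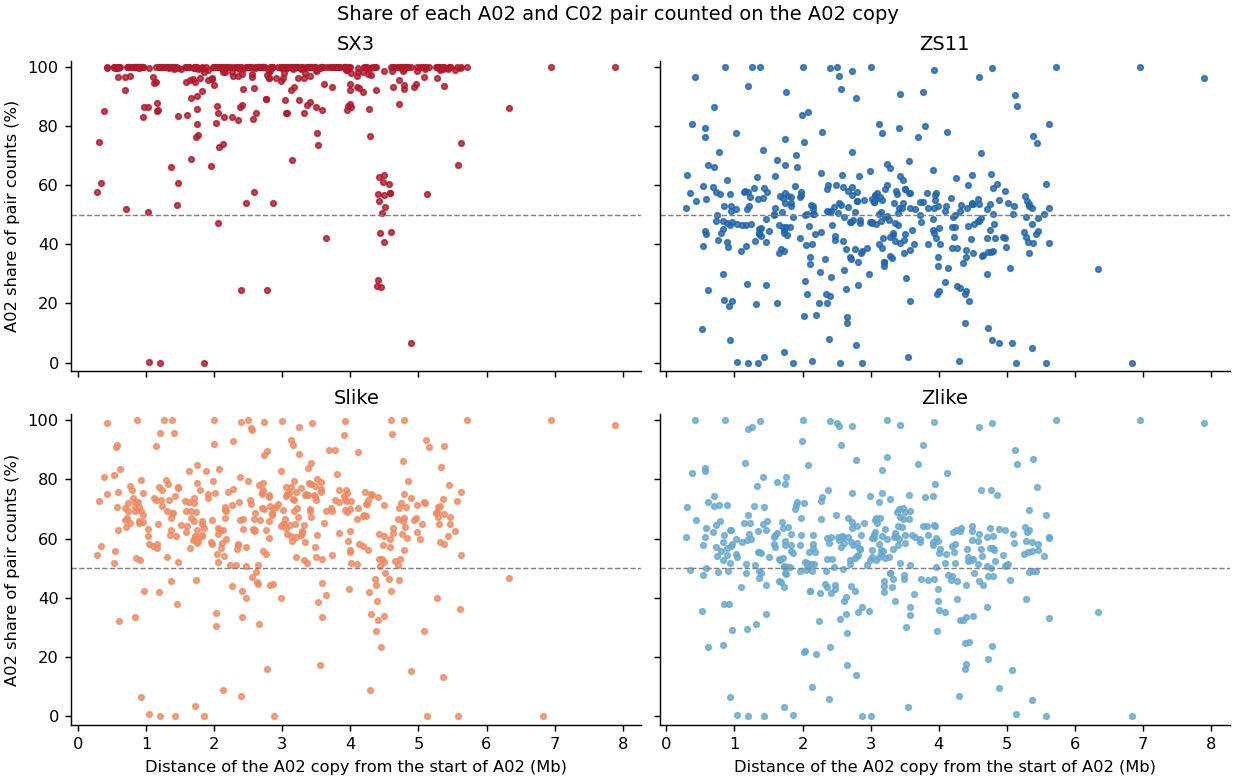
A02 share of the counts of each of 412 single pairs (vertical axis, %) against the distance of the A02 copy from the start of A02 (Mb), 1 panel per group with the 3 libraries summed; the dashed line marks 50%. Most pairs lie at or near 100% in SX3 and around 50% in ZS11, with medians of 66.9% in Slike and 56.8% in Zlike, and a column of SX3 points, most of them from 25.7 to 63.5%, stands near 4.5 Mb.

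With both copies added, Slike and Zlike were near each other and SX3 lay below ZS11. The median over the 412 pairs was −0.02 in Slike minus Zlike for the sum, 0.22 for the A02 copy and −0.39 for the C02 copy. In SX3 minus ZS11 it was −0.35 for the sum, 0.50 for the A02 copy and −3.58 for the C02 copy. Zlike minus ZS11 gave −0.07, 0.09 and −0.25 for the same quantities, and Slike minus SX3 gave 0.30, −0.19 and 2.80. The backcross comparisons with a parent share that parent's libraries with SX3 against ZS11, so they are not independent of it.

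A block of C02 genes departed from this pattern. Ordered by start site, the C02 genes from 6566449 (At5g20050) to 6908540 (nsmce1) form the longest run of genes that kept at least 10% of their ZS11 level in SX3, allowing single genes below that inside the run. The run was found after the values were seen. Its rule fixes how SX3 compares with ZS11 inside and outside the block, so those values only describe the choice. Of 34 genes in this block with at least 1 CPM in ZS11, 1 lay under 10% of its ZS11 level in SX3, against 505 of 589 such genes in the rest of C02 under 9 Mb. The median log2 difference SX3 minus ZS11 was −0.21 in the block and −3.74 outside it. Slike minus Zlike, which did not choose the block, had a median of 0.10 in the block and −0.41 outside it.

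Members paired with that block had A02 shares near 50% in all 4 groups, SX3 included. Their 23 pairs had median A02 shares of 55.6, 57.8 and 56.1% in SX3 libraries and 50, 53.8 and 49.5% in ZS11 libraries. The choice of the block in part fixes the SX3 shares. Slike libraries gave 52.9, 54.5 and 54.4%, and Zlike libraries 51.5, 52.8 and 55.6%, so the backcross classes overlapped. The share was higher in every Slike library in 3 of 23 pairs (13%) and lower in 3 (13%), against 261 and 2 of the 387 other pairs. Of the pairs elsewhere in the genome, 11.8% were higher and 16.8% lower. An exception was GRXC4, a glutaredoxin, with 98.7% in SX3 and 54.1% in ZS11. The run on A02 that pairs with the block holds 19 pairs from 4397213 to 4597794. Just before the run, RPT6A, a proteasome subunit whose A02 copy starts at 4382689, had 92.3% in SX3 and 13.4% in ZS11. Just after it, AGO9 at 4618582 had 98.6% in SX3 and 70.8% in ZS11.

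The block also has 4 partners far away on A02, near the chromosome's start. They include TOUSLED, a nuclear protein kinase, and SAC4, a phosphoinositide phosphatase, and the first of the 4 lies at 284706. Over all 23 pairs the A02 copy had a median SX3 minus ZS11 difference of 0.05, and over the other 389 pairs 0.54.

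In pairs whose C02 copy starts from 9 Mb on, the A02 share was lower in SX3 than in ZS11. There were 122 such expressed single pairs, 119 of them with the A02 copy past UBC7. Over the 122 the median A02 share was 32.9, 33.3 and 31.4% in SX3 libraries, against 48.6, 50 and 48.6% in ZS11 libraries. It was 42.8, 43.1 and 44.2% in Slike libraries and 42.2, 41.8 and 42.6% in Zlike libraries. In these pairs the A02 copy had a median difference of −0.67 in SX3 minus ZS11 and the C02 copy 0.08. Their share was higher in every Slike than in every Zlike library in 30 of 122 pairs (24.6%) and lower in 10 (8.2%). Of the pairs elsewhere in the genome, 11.8% were higher and 16.8% lower.

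**Figure D3:**
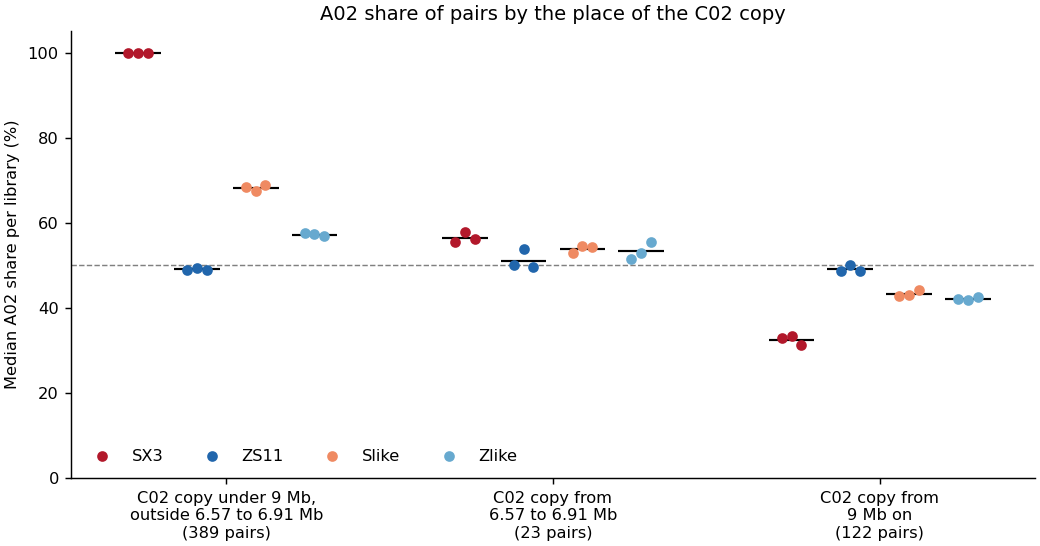
Median A02 share of pair counts per library (vertical axis, %; points are libraries, bars the mean of 3) for pairs grouped by where the C02 copy lies; the dashed line marks 50%. SX3 stands at 100% for 389 pairs, between 55.6 and 57.8% for the 23 pairs with the C02 copy from 6.57 to 6.91 Mb, and between 31.4 and 33.3% for the 122 pairs with the C02 copy from 9 Mb on.

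The main comparison asked how expression differed between the BC2 classes. Of the members, 810 had enough counts for the quasi-likelihood test of edgeR, with p adjusted by Benjamini-Hochberg over all 49526 genes tested and called under 0.05. It called 273 members higher in Slike (33.7%, against 13.8% of all genes tested) and 61 lower (7.53%, against 13.4%). Most differences were small: 45 members were at least 2-fold higher and 2 at least 2-fold lower, where 3.6% and 0.61% of all genes tested were. With DESeq2 the number called lower was 37 and the number called higher 213.

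**Figure D4:**
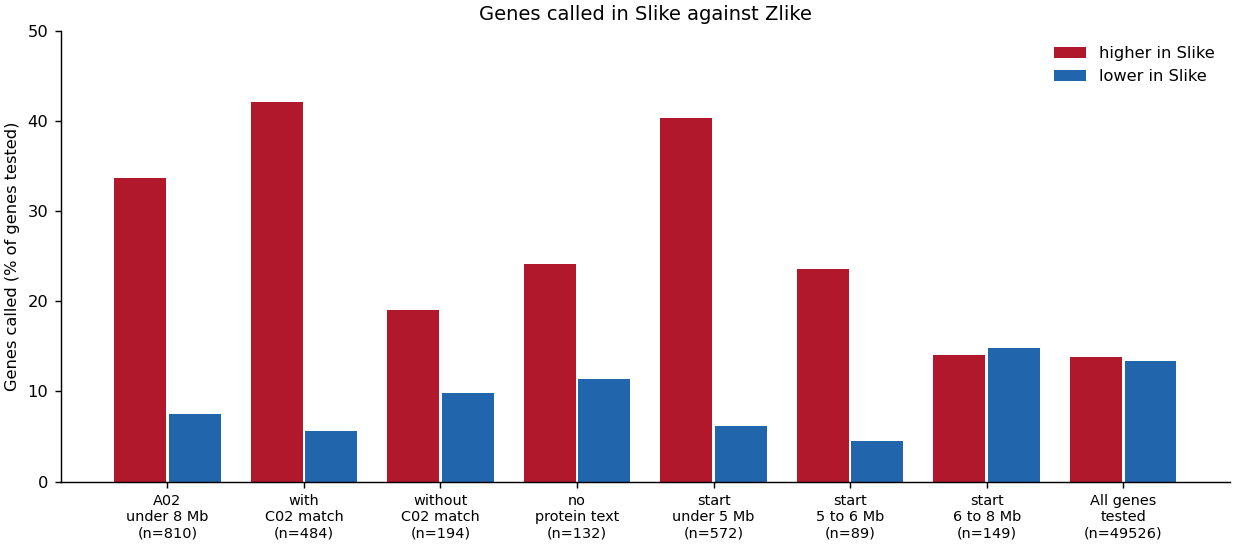
Share of tested genes called higher or lower in Slike against Zlike (vertical axis, %; edgeR, adjusted p under 0.05) for the A02 stretch, its classes by C02 match and by start site, and all genes tested, with the number tested under each pair of bars. Members under 5 Mb were called higher in 40.4% and lower in 6.12%, members from 6 to 8 Mb in 14.1% and 14.8%, and all genes in 13.8% and 13.4%.

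Members with a match were called higher in 204 of 484 (42.1%) and lower in 27 (5.58%), while members without one were called higher in 37 of 194 (19.1%) and lower in 19 (9.79%). Position separated them too. Under 5 Mb 231 of 572 were called higher and 35 lower, and from 6 to 8 Mb 21 of 149 were called higher and 22 lower. The members without a match that lie under 5 Mb were called higher in 14 of 38 and lower in 2. Of the members with a match, 5 tested genes start from 6 to 8 Mb, and 2 of them were called higher and 1 lower.

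The 5 members higher in Slike with the smallest p were AGO9, GER3, PI, the B3-domain gene At5g57720 and BCA2. PI (BnaA02G0084500ZS, 4430754 to 4432808, plus strand) encodes PISTILLATA, the MADS-box regulator of petals and stamens. It had 24.3, 23.3 and 27.1 CPM in Slike libraries and 3.58, 4.26 and 4.93 CPM in Zlike libraries, without overlap. The log2 fold change was 2.55 ± 0.11 (SE), a 5.85-fold rise (edgeR adjusted p = 5.20e-43). Its C02 copy, which lies in the C02 block, rose as well, with 25.2, 22.6 and 25.2 CPM in Slike and 4.2, 3.81 and 3.58 CPM in Zlike (log2 2.65 ± 0.11, edgeR adjusted p = 4.54e-44). The A02 share of PI was 50.6% in Slike and 52.4% in Zlike. In the parents the A02 copy had 6.06, 6.48 and 6.62 CPM in SX3 libraries and 0.348, 0.323 and 0.0705 CPM in ZS11 libraries, so Slike stood above both lines.

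AGO9 (BnaA02G0088300ZS, 4618582 to 4624167) encodes an argonaute protein that in Arabidopsis acts in the ovule through small RNAs. It reached 56, 54.8 and 56.9 CPM in Slike libraries against 12.7, 11.7 and 11.9 CPM in Zlike libraries, 4.63-fold higher (log2 2.21 ± 0.07, edgeR adjusted p = 6.45e-57). Here the copies parted: the C02 copy had a mean of 2.79 CPM in Slike and 3.66 CPM in Zlike, and the A02 share was 95.2% in Slike and 76.5% in Zlike. Both parents lay lower than Slike on A02, with 13.8, 14.7 and 15.4 CPM in SX3 libraries and 6.84, 7.36 and 6.7 CPM in ZS11 libraries.

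GER3 (BnaA02G0086600ZS, 4516448 to 4517083), a germin-like protein of the cell wall, had 33.3, 39.4 and 36.5 CPM in Slike libraries and 4.96, 6.29 and 7.8 CPM in Zlike libraries. That is a 5.75-fold rise (log2 2.52 ± 0.09, edgeR adjusted p = 2.30e-49). The B3-domain gene At5g57720 (BnaA02G0115700ZS, 6061224 to 6062697), of a plant family of DNA-binding proteins, had 17.9, 18.5 and 19.8 CPM in Slike and 2.62, 3.24 and 3.65 CPM in Zlike, 5.91-fold higher (edgeR adjusted p = 7.86e-38). It lies in the zone whose C02 matches start past 9 Mb. BCA2 (BnaA02G0055300ZS, 2999645 to 3002269), a carbonic anhydrase, had 7.16, 8.6 and 7.95 CPM in Slike and no count in any Zlike library. Taken against a floor of 3 counts per library it was at least 38-fold higher. SX3 libraries had 0.369, 0.144 and 0.355 CPM, and ZS11 had 1 count in all.

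**Figure D5:**
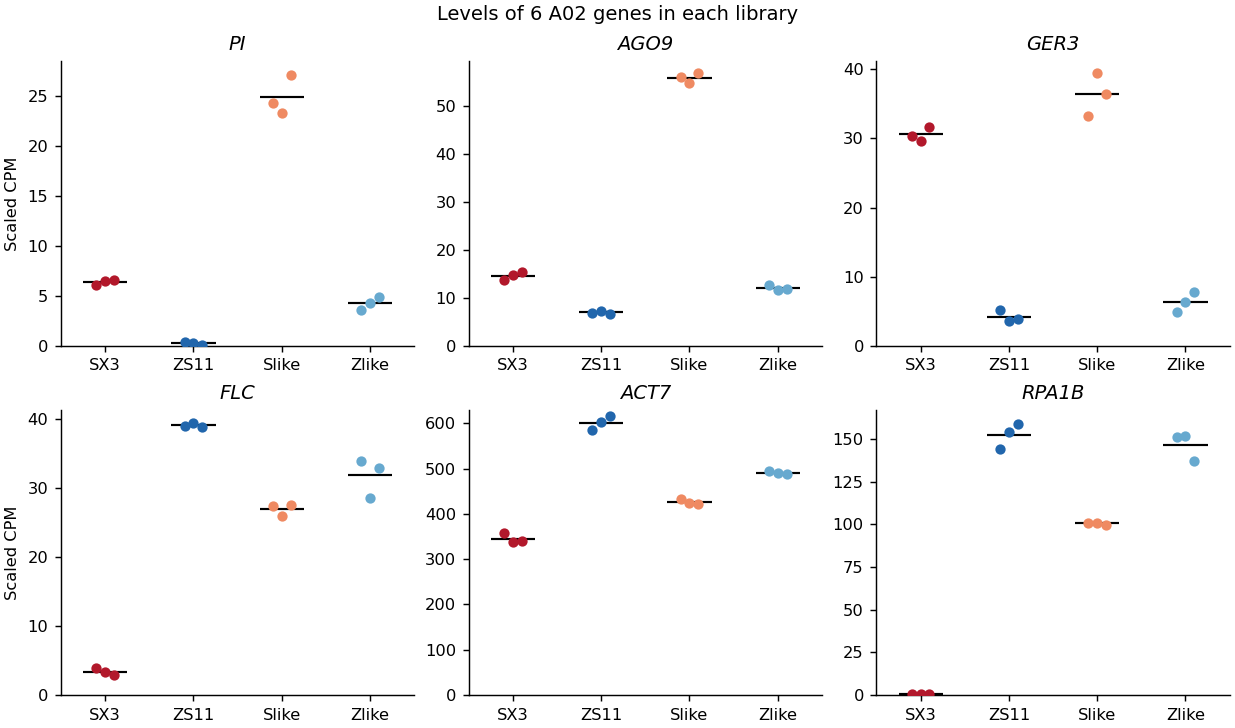
Scaled CPM (vertical axes, from 0) of 6 A02 genes in each library of SX3, ZS11, Slike and Zlike; points are libraries and bars the mean of 3. PI, AGO9 and GER3 are higher in every Slike library than in every Zlike library, whereas FLC, ACT7 and RPA1B are lower.

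Of the anther markers, AMS and DYT1 had higher means in Slike than in Zlike, and EMS1 did not. AMS and DYT1, regulators of the tapetum in the anther, had summed means of 11.3 and 11.3 CPM in Slike and 0.0212 and 0.068 CPM in Zlike. AMS had no count in SX3 or ZS11, where DYT1 had 0.0677 and 0.176 CPM. EMS1, a receptor kinase of anther cell fate, summed to 148 CPM in Slike and 148 CPM in Zlike, and to 116 CPM in SX3 and 153 CPM in ZS11. The whole anther list, 10 genes with most counts from EMS1, summed to 166 to 176 CPM in Slike libraries, 143 to 150.0 CPM in Zlike libraries, 113 to 119 CPM in SX3 libraries and 151 to 154 CPM in ZS11 libraries. Of 16 meristem marker genes, none was at 0, and they summed to 228 to 234 CPM in Slike and 270.3 to 277 CPM in Zlike. In the parents they summed to 315 to 325 CPM in SX3 and 439 to 449 CPM in ZS11. STM gave the largest part, with 119.6 CPM in Slike, 143 CPM in Zlike, 147 CPM in SX3 and 268 CPM in ZS11. Only WUS had a higher mean in Slike than in Zlike, at 2.72 and 1.06 CPM. WUS, CLV3 and KNAT1 had higher means in SX3 than in ZS11. Of 13 green-tissue marker genes 1 was at 0, nearly all counts came from genes matched to LHCB1.3, and they summed to 1371 to 1385 CPM in Slike, 1119.5 to 1183 CPM in Zlike, 684 to 705 CPM in SX3 and 2296 to 2331 CPM in ZS11. Of 57 vascular marker genes 4 were at 0. They summed to 179.6 to 182 CPM in Slike, 203 to 208 CPM in Zlike, 195 to 202 CPM in SX3 and 248 to 259.8 CPM in ZS11. Most of these counts came from 32 genes matched to APL, at 150.1 CPM in Slike and 182 CPM in Zlike. The other vascular markers went the opposite way. SUC2, CESA7, CESA4, CESA8 and NAC030 each had a higher mean in Slike than in Zlike, and in SX3 than in ZS11. The part of all these markers in the results on single genes was not tested.

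The 5 members lower in Slike with the smallest p were RPA1B, ACT7, GSTF12, UBC10 and RPS30A. RPA1B (BnaA02G0141200ZS, 7854046 to 7856814) encodes a subunit of replication protein A, which binds single-stranded DNA. It had 101, 101 and 99.5 CPM in Slike libraries against 151, 152 and 137 CPM in Zlike libraries (log2 −0.55 ± 0.04, edgeR adjusted p = 1.13e-26). In the parents it had 0.517, 0.504 and 0.532 CPM in SX3 libraries and 144, 154 and 159 CPM in ZS11 libraries, so SX3 stands far below every other group. ACT7 (BnaA02G0033600ZS, 1958603 to 1961010), the actin of growing tissue, had 433, 424 and 421 CPM in Slike and 495, 491 and 487 CPM in Zlike (log2 −0.21 ± 0.02, edgeR adjusted p = 2.64e-12). Its C02 copy moved the same way (log2 −0.27 ± 0.03, edgeR adjusted p = 4.59e-16).

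GSTF12 (BnaA02G0068400ZS), a glutathione transferase needed in Arabidopsis for anthocyanin storage, had 26.7, 23.5 and 28.2 CPM in Slike and 35.4, 36.4 and 38.7 CPM in Zlike (log2 −0.49 ± 0.07, edgeR adjusted p = 4.16e-10). UBC10 (BnaA02G0139900ZS), a ubiquitin-conjugating enzyme, averaged 120.1 ± 1.23 CPM in Slike and 143 ± 3.75 CPM in Zlike (SD, n = 3 each). RPS30A (BnaA02G0121900ZS), a protein of the small ribosomal subunit, averaged 36 ± 1.26 CPM in Slike and 47.4 ± 1.68 CPM in Zlike. Of these 5 genes, RPA1B, UBC10 and RPS30A start past 6.5 Mb. All 5 were lower in every SX3 library than in every ZS11 library. That contrast drew the limits, and how often other genes were lower in this way was not counted.

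Members were also grouped by role. The calls of a role list stand beside 33.7% higher and 7.53% lower in the stretch and 13.8% and 13.4% over all genes tested, and its median log2 difference beside 0.14 in the stretch and −0.00 over all expressed genes. The lists are small, and whether any differed from the rest of the stretch was not tested. Of 17 members that act in flowering time and the clock, 12 were tested, 3 were called higher (25%) and 1 lower (8.33%) in Slike. The list's median difference was 0.06 on the log2 scale. FLC (BnaA02G0035100ZS, 2018429 to 2021687, minus strand), the MADS-box repressor of flowering that cold silences, was the lower one. It had 27.4, 26 and 27.5 CPM in Slike libraries against 34, 28.6 and 33 CPM in Zlike libraries, which do not overlap. The log2 change was −0.24 ± 0.07 (edgeR adjusted p = 0.00417), and without Zlike replicate 1 the adjusted p was 0.0589. The parents lay at 3.84, 3.31 and 2.9 CPM in SX3 libraries and 39, 39.5 and 38.9 CPM in ZS11 libraries. The C02 copy of FLC had no count in SX3 and a mean of 13.4 CPM in ZS11, and had 8.82 ± 0.768 CPM in Slike and 12.3 ± 1.74 CPM in Zlike (SD, n = 3 each). FLC had lower means in SX3 than in ZS11 on both chromosomes, and so did TCP21, PSRP6, WRKY19 and ACT7 among the named pairs. The A02 copy was higher in SX3 in 297 of 412 pairs (72.1%), against 49.2% of all expressed genes. SX3 against ZS11 drew the limits, so these values are a description.

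APRR7, a pseudo-response regulator of the clock, had 48.7, 54 and 49.8 CPM in Slike and 41.7, 40.8 and 38.3 CPM in Zlike (log2 0.34 ± 0.05, edgeR adjusted p = 2.10e-07). FY, an RNA 3′-end processing factor that in Arabidopsis lowers FLC, had 22.1, 25.2 and 26.6 CPM in Slike and 14.9, 18.2 and 16.8 CPM in Zlike (log2 0.56 ± 0.08, edgeR adjusted p = 5.69e-09). SPL7, listed here by its family name but known as a copper-response regulator, averaged 17.5 ± 0.586 CPM in Slike and 13.8 ± 1.48 CPM in Zlike (log2 0.34 ± 0.09, edgeR adjusted p = 0.0018). For APRR7 and FY the C02 copy had a lower mean in Slike than in Zlike. The C02 copy of SPL7 overlapped between the classes (log2 −0.10 ± 0.11, edgeR adjusted p = 0.547).

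Hormone genes were few in number at measurable levels. Among 15 cytokinin and gibberellin members, 5 were tested, 3 called higher (60%) and 1 lower (20%). The list's median difference was 0.18 on the log2 scale. GASA4 (BnaA02G0058500ZS, 3132801 to 3133824), a small gibberellin-regulated protein, had 267, 262 and 273 CPM in Slike and 231, 235 and 245 CPM in Zlike (log2 0.18 ± 0.03, edgeR adjusted p = 1.55e-07). Its parents had 527, 523 and 527 CPM in SX3 libraries and 127, 130.3 and 124 CPM in ZS11 libraries. CKX3 (BnaA02G0120800ZS, 6466987 to 6469983), a cytokinin dehydrogenase that breaks the hormone down, had 3.94, 4.33 and 4.58 CPM in Slike and 0.551, 0.318 and 0.286 CPM in Zlike (log2 3.45 ± 0.30, edgeR adjusted p = 6.85e-19). It had 0.886, 1.01 and 0.946 CPM in SX3 and 3 counts in all in ZS11.

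LOG8, which releases active cytokinin, was the lower one, with 16.2, 14.5 and 15.6 CPM in Slike and 18.6, 19.9 and 21.9 CPM in Zlike (log2 −0.38 ± 0.09, edgeR adjusted p = 0.0002). The other gene called higher was LOG7, an enzyme of the same kind, of low level and named after its values were seen. LOG7 had 1.97, 2.73 and 1.62 CPM in Slike and 1.1, 0.89 and 1.14 CPM in Zlike (log2 1.01 ± 0.30, edgeR adjusted p = 0.00521). CKX7, another cytokinin dehydrogenase, averaged 8.51 ± 0.546 CPM in Slike and 8.1 ± 0.179 CPM in Zlike (edgeR adjusted p = 0.731). Of 11 auxin members 2 were tested and 1 was called lower. That was GH3.6, which conjugates auxin to amino acids, at 14.8 ± 0.324 CPM in Slike and 17.4 ± 0.903 CPM in Zlike, with an edgeR adjusted p of 0.0419 and 0.174 by DESeq2. Its call was lost without Slike replicate 1 (0.109), 2 (0.0982) or 3 (0.065) and without Zlike replicate 1 (0.118) or 3 (0.122), each an edgeR adjusted p. The auxin response factor ARF7 averaged 6.79 ± 0.173 CPM in Slike and 5.62 ± 0.992 CPM in Zlike (edgeR adjusted p = 0.158). The list of other hormones, 16 members with 8 tested, gave 1 call higher and none lower. The called gene, named after its values were seen, was ERF106, an ethylene-response factor of low level, at 3.94, 3.91 and 3.57 CPM in Slike and 2.07, 2.67 and 2.36 CPM in Zlike (edgeR adjusted p = 0.00649). AIL5, AIL6 and TOE2, which are on the list by name, are AP2-type developmental regulators and did not pass. TOE2, a repressor of flowering in Arabidopsis, averaged 11.4 ± 0.869 CPM in Slike and 10.4 ± 1.04 CPM in Zlike.

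In cell division and chromatin, 8 of 16 tested were called higher (50%) and 1 lower (6.25%), over 22 members with a median log2 difference of 0.20. HDT2, a plant-specific histone deacetylase, averaged 355 ± 8.45 CPM in Slike and 311 ± 3.87 CPM in Zlike (log2 0.19 ± 0.03, edgeR adjusted p = 1.05e-09). The histone H2A.7 gene rose by log2 0.23 ± 0.03 on A02, while its C02 copy changed by −0.31 ± 0.03. The lower gene was RPA1B. In the list of primary metabolism, drawn by the words synthase, dehydrogenase and kinase, 22 of 61 tested were called higher (36.1%) and 1 lower (1.64%), over 87 members with a median of 0.19. A mitochondrial ATP synthase 6 kDa subunit (BnaA02G0104200ZS) did not pass, with 70.6, 87.6 and 77.9 CPM in Slike and 76.5, 82.4 and 90.2 CPM in Zlike (log2 −0.08 ± 0.05, edgeR adjusted p = 0.239), and passed without Slike replicate 2 (0.0108) or Zlike replicate 1 (0.0473). The mitochondrial ATP synthase beta subunit At5g08680 had 128, 124 and 136 CPM in Slike and 75, 83.5 and 75.4 CPM in Zlike (log2 0.73 ± 0.04, edgeR adjusted p = 6.71e-34). Some of the list's calls were signalling kinases such as CIPK14 and CPK8, not metabolic enzymes. The lower gene was a second At5g08680 copy beside the first (BnaA02G0030300ZS), with 51.2 CPM in Slike and 58.3 CPM in Zlike (edgeR adjusted p = 0.00174). CESA3, a cellulose synthase of primary walls, averaged 214 ± 2.18 CPM in Slike and 177 ± 6.62 CPM in Zlike. ACL5, a thermospermine synthase needed for stem elongation in Arabidopsis and named after its values were seen, had 34.4, 33.7 and 35.2 CPM in Slike and 18.4, 22.8 and 19.5 CPM in Zlike (log2 0.76 ± 0.07, edgeR adjusted p = 2.42e-17). Its A02 share was 71.7% in Slike and 51.6% in Zlike.

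Of the ribosomal protein genes, 7 of 24 tested were called higher (29.2%) and 5 lower (20.8%), over 29 members with a median of 0.03. RPS23B averaged 189 ± 3.42 CPM in Slike and 155 ± 2.44 CPM in Zlike. RPS7C averaged 151 ± 2.28 CPM in Slike and 124 ± 4.62 CPM in Zlike. RPS15A, which did not pass, averaged 125 ± 5.32 CPM in Slike and 123 ± 3.23 CPM in Zlike. Reads of ribosomal, histone and actin genes can be shared among near-identical copies, so their values per copy are uncertain. Of the transcription factors, 8 of 37 tested were called higher (21.6%) and 4 lower (10.8%), over 83 members with a median of 0.04. WRKY19 was lower, with 20.7 ± 0.935 CPM in Slike and 26 ± 2.74 CPM in Zlike, and MYB44, a stress-response regulator, had 18.6 ± 1.12 CPM in Slike and 18.9 ± 1.48 CPM in Zlike. RAX1, a MYB regulator of axillary meristems in Arabidopsis, also named after its values were seen, had 2.63, 1.68 and 3.16 CPM in Slike and 1.58, 1.33 and 1.5 CPM in Zlike (log2 0.76 ± 0.26, edgeR adjusted p = 0.02).

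Of the receptor kinases and peptides, 5 of 13 tested were called higher (38.5%) and 1 lower (7.69%), over 32 members with a median of 0.22. At5g16590, listed as a probable inactive receptor kinase, had 36.4, 34.1 and 31.7 CPM in Slike and 26.9, 28 and 25.9 CPM in Zlike (log2 0.33 ± 0.07, edgeR adjusted p = 1.95e-05). PXC2, a leucine-rich repeat kinase, had 38.3, 41.7 and 44 CPM in Slike and 37, 34.8 and 32.3 CPM in Zlike (log2 0.25 ± 0.06, edgeR adjusted p = 0.000409). ALE2, a kinase of epidermis formation in Arabidopsis, was lower, with 21.5, 20.3 and 21.5 CPM in Slike and 27.1, 27.3 and 25.6 CPM in Zlike (log2 −0.34 ± 0.07, edgeR adjusted p = 9.12e-05). BAK1, the co-receptor of brassinosteroid and immune receptors, pairs with the C02 block and averaged 27.7 ± 0.87 CPM in Slike and 29.6 ± 2.42 CPM in Zlike (edgeR adjusted p = 0.355). Only 2 members belong to photosynthesis, and 1 of them was called higher: LHCB4.2, an antenna protein of photosystem II, at 144 ± 2.78 CPM in Slike and 95.5 ± 1.99 CPM in Zlike (log2 0.59 ± 0.04, edgeR adjusted p = 6.34e-30).

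The most abundant pairs show the A02 and C02 copies side by side. MS1, a methionine synthase, had 733, 728 and 727 CPM from A02 in Slike libraries and 640.3, 636 and 629 CPM in Zlike libraries, and 1135, 1143 and 1121 CPM in SX3 libraries and 682, 704 and 689 CPM in ZS11 libraries. From C02 the same gene had 266 ± 4.74 CPM in Slike and 356 ± 2.57 CPM in Zlike, and 0.387 ± 0.118 CPM in SX3 and 585 ± 10.4 CPM in ZS11 (SD, n = 3 each). Its A02 share was 73.2% in Slike and 64.1% in Zlike. AAC2, the mitochondrial carrier that exchanges ADP and ATP, had an A02 share of 76.3% in Slike and 65.6% in Zlike, and of 100% in SX3 and 56.6% in ZS11. For GASA4 the shares were 77.3% in Slike and 66.8% in Zlike, and 99.9% in SX3 and 56% in ZS11.

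Some abundant pairs kept reads from C02 in SX3. CALS3, a callose synthase acting at plasmodesmata, had an A02 share of 82.5% in SX3 and 53.2% in ZS11, and its A02 copy averaged 199 ± 3.3 CPM in Slike and 196 ± 4.69 CPM in Zlike (edgeR adjusted p = 0.628). ACT7 had 66.5% in SX3 and 55.9% in ZS11. RPS9B had 92.3% in SX3 and 50.1% in ZS11, and H2A.7 93.6% and 40.4%. The histone H4 pair had 99.9% in SX3 and 48.8% in ZS11, and 65% in Slike and 58.2% in Zlike. Over all pairs 295 reached a share of 95% or more in SX3, whereas 16 did in ZS11, 23 in Slike and 18 in Zlike.

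In SX3 against ZS11, the contrast that drew the limits, genes are given by their values. The members with the largest SX3 values relative to ZS11 were PI, APT5, NIT2, GER3 and a WDR12 homolog. APT5, an enzyme of adenine salvage, had 41.8, 41.3 and 41.5 CPM in SX3 libraries and 4.98, 3.81 and 4.8 CPM in ZS11 libraries. Its C02 copy had no count in SX3 and 18.1 ± 1.39 CPM in ZS11. NIT2, a nitrilase, had 15.7, 16.5 and 19 CPM in SX3 and 1.51, 2 and 1.48 CPM in ZS11, and its C02 copy had 2 counts in all in SX3 and 82.7 ± 3.1 CPM in ZS11. The WDR12 homolog of ribosome assembly averaged 29.9 ± 1.27 CPM in SX3 and 4.4 ± 0.475 CPM in ZS11.

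Members with the lowest SX3 values relative to ZS11 included RPA1B, PLC1, PSRP6 and TCP21. PLC1 (5818573 to 5821070), a phosphoinositide phospholipase, had 0.0739, 0.216 and 0.295 CPM in SX3 libraries and 24.1, 22.8 and 21.4 CPM in ZS11 libraries. PSRP6, a plastid ribosomal protein, averaged 0.321 ± 0.101 CPM in SX3 and 13.4 ± 1.1 CPM in ZS11. TCP21, a TCP-family factor linked to the clock in Arabidopsis, averaged 0.725 ± 0.325 CPM in SX3 and 14.2 ± 0.364 CPM in ZS11. These 4 were also called lower in Slike, by a log2 change of −0.55 for RPA1B, −0.54 for PLC1, −0.57 for PSRP6 and −0.41 for TCP21. TCP21 had an adjusted p of 0.0842 with DESeq2 against 0.00861 with edgeR, which gave 0.0582 without Slike replicate 2 and 0.212 without Zlike replicate 1.

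The backcross classes were also set against the parental lines. These comparisons share libraries with the contrast that drew the limits, so their counts are a description. Zlike against ZS11 called 268 of 853 members higher and 189 lower, where 23.1% and 22.9% of all genes tested were. From 6 to 8 Mb 23 of 158 were higher and 54 lower. Slike against SX3 called 293 of 853 higher and 298 lower (29.8% and 23.9% of all genes tested). From 6 to 8 Mb 113 of 158 were higher in Slike and 12 lower, and under 5 Mb 148 of 601 were higher and 254 lower. In the test of the difference between Slike minus Zlike and SX3 minus ZS11, of which the second drew the limits, 275 of 853 members had the first difference above the second and 308 below it, where 30.1% and 23.2% of all genes tested did. The choice of the stretch in part fixes these counts, and nothing is read from them.

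At the 8 Mb limit, the last members inside were 2 PKP2 genes, which encode plastid pyruvate kinase, and MAKR6, with SX3 minus ZS11 differences of −0.04, 0.89 and 0.66. The first genes outside were BnaA02G0143100ZS, MAKR5 and ABCG8, with −2.05, −2.62 and −1.39. These few genes do not stand for their surroundings. In 0.5 Mb bins the median was negative on both sides, at −0.49 from 7.5 to 8 Mb and −0.72 from 8 to 8.5 Mb. In the authors' deposited table of Slike and Zlike the words run towards Zlike: all 1672 genes marked as down had a higher mean in Slike, and all 168 marked as up had a lower one. Of these genes in the authors' deposited table, 42 members were marked as down and 2 as up, 28 and 1 of them with a C02 match. In the authors' deposited table of SX3 and ZS11, where the words run towards ZS11, 5301 genes were marked as down and 8155 as up. Among them were 199 and 147 members, 136 and 45 with a match. That contrast drew the limits, so the choice of the stretch in part fixes these counts of members.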

How the data were processed

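The authors deposited a table with a whole-number read count per gene for 12 libraries, without normalization, per the file headers. Its FPKM columns, which the authors computed, were used only for levels compared between genes. The submitters' processing notes name fastp, HISAT2 and featureCounts, without versions. Genome build, strand use and multi-mapping were not given in the sources used here, so reads of homoeologs, overlapping and antisense genes may be split. Positions, protein texts and the authors' direction words were used as deposited.

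Counts were tested with edgeR 4.0.16 in R 4.3.3 (TMM, filterByExpr, glmQLFit and glmQLFTest, two-sided, Benjamini-Hochberg over all genes). Slike against Zlike and SX3 against ZS11 used their own 6 libraries, the other contrasts all 12. Counts of edgeR calls in SX3 against ZS11 are not given, since that contrast drew the limits. DESeq2 1.42.0, other scalings, filters, limits and left-out libraries were alternatives, and the edgeR step was tested on simulated data. Levels are TMM-scaled CPM, and log2 differences use a pseudocount of 0.5 CPM. Exact permutation tests of 3 against 3 libraries cannot go below p = 0.1 and were not used.

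Members and lists were chosen with earlier results of these data known. Named genes were the 5 higher and 5 lower members with the smallest p in Slike against Zlike among called, non-overlapping genes with a protein text. To these were added the 5 largest and 5 smallest SX3 minus ZS11 differences at 5 CPM or more, the 8 most abundant pairs, and up to 4 members per role list at 5 CPM or more, with FLC, GASA4 and CKX3 always; a gene that the rule names is not reported here. At the edges and in the C02 block, genes were chosen after their values were seen. Libraries of a group differed by more than sampling noise.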

Additional observations from a re-analysis of the deposited data

Results flagged for a closer look

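A test of the difference between the comparisons, (Slike − Zlike) − (SX3 − ZS11), was fitted with edgeR on all 12 libraries. Of 853 members tested, the Slike minus Zlike difference lay above the SX3 minus ZS11 difference in 275 and below it in 308, where 30.1% and 23.2% of all genes tested did. Because SX3 minus ZS11 drew the limits of the stretch, the choice of members in part fixes these counts, and they are given as values only.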

How the results depend on the processing

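Depth limits copies under about 0.2 CPM, and values per copy depend on how reads were divided. Among the alternatives run, the medians kept their sign except in the cases marked reversed, and the cause of each change was not tested. By position, not run as an alternative for these comparisons, the median from 6 to 8 Mb was −0.12 in Zlike minus ZS11 and 0.60 in Slike minus SX3, against 0.04 and −0.03 over the stretch, and from 6 to 8 Mb 21 members were called higher and 22 lower in Slike against Zlike. DESeq2 called 37 members lower in Slike against Zlike. Replicate numbers do not pair the libraries (correlations of same-numbered deviations from −0.02 to 0.01), and with the replicate number as a block edgeR called 274 members higher and 61 lower, with no count moved by over 1.5 times. Among the named genes TCP21 (adjusted p 0.0842) and GH3.6 (0.174) lost the call with DESeq2, and GH3.6 also without a filter (0.0521).

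The median over the stretch moved by more than the spread between libraries as follows. Slike minus Zlike gave 0.13 with A02 under 9 Mb and with a pseudocount of 2 CPM, 0.20 for genes under 5 Mb, 0.05 from 5 to 6 Mb and 0.02 from 6 to 8 Mb (parts chosen after seeing the data). SX3 minus ZS11 gave 0.34 with upper-quartile scaling, 0.28 with TMM without A02 and C02, 0.38 under 7 Mb, 0.17 under 9 Mb, 0.31 at 5 CPM, 0.23 with the larger pseudocount, 0.47 under 5 Mb and, reversed, −0.66 from 6 to 8 Mb. Zlike minus ZS11 gave 0.07 with upper-quartile scaling, under 7 Mb and at 5 CPM. Slike minus SX3 gave −0.06 with upper-quartile scaling, −0.08 under 7 Mb and, reversed, 0.06 under 9 Mb.

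For members with a match, Slike minus Zlike gave 0.17 with the larger pseudocount. SX3 minus ZS11 gave 0.53 with upper-quartile scaling, 0.48 with TMM without A02 and C02, 0.52 at 5 CPM, 0.42 with the larger pseudocount, and 0.47 and 0.45 with the C02 limit at 8 and 10 Mb. Zlike minus ZS11 gave 0.13, 0.12, 0.09, 0.10 and 0.09 for upper-quartile scaling, 5 CPM, pseudocount, 8 Mb and 10 Mb, and Slike minus SX3 gave −0.20, −0.19, −0.15, −0.16 and −0.15 for the same settings. For members without a match, Slike minus Zlike gave 0.01 under 9 Mb and 0.06 at 5 CPM and with the larger pseudocount. SX3 minus ZS11 gave −0.56 under 7 Mb, −0.59 under 9 Mb, −0.39 and −0.35 with the C02 limit at 10 and 8 Mb, −0.54 at 5 CPM, −0.44 with the pseudocount and −0.45 with upper-quartile scaling. Zlike minus ZS11 gave −0.08 with the limit at 8 Mb and −0.07 with upper-quartile scaling. Slike minus SX3 gave 0.46 with upper-quartile scaling and under 7 Mb, 0.52 at 5 CPM, 0.41 with the pseudocount, and 0.37 and 0.44 with the limit at 8 and 10 Mb.

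For pair sums, SX3 minus ZS11 gave −0.30 with upper-quartile scaling, −0.38 at 5 CPM and with the limit at 10 Mb, and −0.32 with the pseudocount. Zlike minus ZS11 gave −0.04 with upper-quartile scaling, and −0.08 and −0.09 with the limit at 8 and 10 Mb. Slike minus SX3 gave 0.27 with upper-quartile scaling, 0.28 with the pseudocount and 0.31 with TMM without A02 and C02. The pooled A02 share was 99.7% in SX3 with the limit at 10 Mb, 49.9% in ZS11 at 5 CPM and from FPKM, and 57.2% at 5 CPM and 56.2% with the limit at 10 Mb in Zlike.

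With each library left out in turn, 240 to 270 members were called higher and 46 to 58 lower in Slike. The stretch medians ranged from 0.14 to 0.16 in Slike minus Zlike, 0.27 to 0.30 in SX3 minus ZS11, 0.04 to 0.06 in Zlike minus ZS11 and −0.03 to −0.01 in Slike minus SX3. With a match they ranged from 0.20 to 0.22, 0.49 to 0.51, 0.10 to 0.13 and −0.18 to −0.16 in the same comparisons, and without one from 0.05 to 0.08, −0.56 to −0.47, −0.11 to −0.09 and 0.46 to 0.53. Pair sums ranged from −0.36 to −0.34 in SX3 minus ZS11, −0.08 to −0.07 in Zlike minus ZS11 and 0.30 to 0.32 in Slike minus SX3. Shares ranged from 99.8 to 99.9% in SX3, 49.2 to 49.5% in ZS11 and 56.5 to 57.2% in Zlike.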
